A study of Homo sapiens with 8 samples.

Results

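Most of the 56 genes described here encode nucleolar proteins and factors that build ribosomes. SRM, an enzyme of polyamine synthesis, and IPO4, an importin, are also among the 56. The set was chosen by name, with earlier results of these data known. Each gene was found among the 25066 of the deposited table, 54 by symbol and 2 by Entrez gene ID. The 2 were UTP4, listed as CIRH1A, and BRIX1, listed as BXDC2. All 56 passed the filter on low values that left 12531 genes for testing, and the fewest reads that any of them had in a library was 185, for BOP1. The cells were TMD8, an established human line of the activated B cell-like type of diffuse large B cell lymphoma, grown with Cas9 delivered by lentivirus and with a stable guide RNA. The guide was either a control (sgCTRL, genotype given as KLHL14(+/+)) or one against KLHL14 (sgKLHL14, genotype given as KLHL14(-/-)), so Cas9 and a guide are shared by all groups. Each kind of cell received DMSO, the solvent, or ibrutinib at 2 nM for 24 h, which made 4 groups of 2 RNA-seq libraries. Ibrutinib is a covalent inhibitor of BTK, a kinase that carries signals from the B cell receptor. The labels give 1 guide against KLHL14, do not say whether the edited cells were a clone or a pool, and do not name separate cultures for the replicates, so p-values cover only how far these samples differ from each other, and that may be technical.

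Ribosomes are assembled in the nucleolus. RNA polymerase I transcribes the ribosomal RNA precursor, small nucleolar ribonucleoproteins (snoRNPs) guide its chemical modification, the small subunit processome folds and cuts the part that becomes the 40S subunit, and a separate series of factors matures the 60S subunit. The genes for these factors are known for rising and falling with cell growth, and many are known targets of MYC, a transcription factor that pairs with MAX and binds the E-box CACGTG. MYC lies downstream of growth signals in B cells.

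Depth ran from 12333876 to 23467110 reads per library, and deeper libraries carry less counting error. Levels are given as the deposited log2 values, which are log2 of reads scaled to each library, so 1 unit is a 2-fold difference. Levels are compared between libraries and never between genes, since the values are not divided by gene length. Replicates correlated at 0.994 to 0.996 across genes, and the first principal component separated the treatments with 64.8% of the variance. The B cell and lymphoma markers MS4A1, CD79A, CD79B, CD22, PAX5 and IRF4 were all present, at 0.524% to 0.596% of reads in sum. Of the markers of other cells, CD3D, CD3E, FCGR3A, S100A8, S100A9 and KRT19 had no reads in any library, while 2 of 6 T cell, 0 of 7 myeloid and 6 of 10 epithelial or fibroblast markers passed the filter, in sum 0.000168% to 0.000389%, 5.68e-05% to 0.000120% and 0.00554% to 0.00691% of reads. The libraries labelled sgKLHL14 did not have less KLHL14 mRNA: it read 12.07 and 12.06 with sgCTRL against 12.19 and 12.33 in DMSO, and 12.30 and 12.30 against 13.16 and 13.16 in ibrutinib. In the libraries labelled sgKLHL14 it was higher than with sgCTRL, by 0.20 on the log2 scale in DMSO and 0.86 in ibrutinib. A guide that changes the coding sequence need not lower the mRNA, so this level neither bears out nor refutes the label.

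Promoter sequences are shown because the E-box stands close to the start of many of these genes. RefSeq promoters (GRCh38.p14), from 250 bases before to 50 bases after each annotated start, were matched for 48 of the 56 genes, 10 of them with 2 listed starts. BOP1, DDX18, NOLC1, NOP58, RRP12, RRP1B, RRS1 and TCOF1 had no match. The letters CACGTG, which read the same on both strands, were searched in the whole window. The lines below give 70 bases before to 30 bases after the start, 5′ to 3′ on the gene's strand, with the E-box in capitals. MRTO4 (chr1:19251735-19251834, plus strand), UTP4 (chr16:69132579-69132678, plus), PES1 (chr22:30591881-30591980, minus), NOC3L (chr10:94362910-94363009, minus), DDX21 (chr10:68956577-68956676, plus, one of its 2 starts) and LYAR (chr4:4289992-4290091, minus, one of its 2 starts) hold it and were lower with ibrutinib. FBL (chr19:39846350-39846449, minus) and NAT10 (chr11:34105559-34105658, plus) hold it and did not pass the test. PA2G4 (chr12:56104489-56104588, plus), NCL (chr2:231464455-231464554, minus) and GTPBP4 (chr10:988364-988463, plus) do not hold it and were lower with ibrutinib. The lines are examples and do not show how common the E-box is, since 25 of the 48 genes lack it. Genes that lack it and did not pass the test, such as POLR1A and UBTF, are not printed.
MRTO4: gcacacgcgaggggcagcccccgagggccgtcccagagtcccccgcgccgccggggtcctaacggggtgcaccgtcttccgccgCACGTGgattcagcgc
UTP4: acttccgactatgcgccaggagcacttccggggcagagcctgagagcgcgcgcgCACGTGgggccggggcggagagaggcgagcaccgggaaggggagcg
PES1: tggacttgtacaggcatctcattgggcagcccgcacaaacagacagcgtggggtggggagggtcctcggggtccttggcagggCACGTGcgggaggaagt
NOC3L: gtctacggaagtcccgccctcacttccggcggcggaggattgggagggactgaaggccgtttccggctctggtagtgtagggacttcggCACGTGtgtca
DDX21: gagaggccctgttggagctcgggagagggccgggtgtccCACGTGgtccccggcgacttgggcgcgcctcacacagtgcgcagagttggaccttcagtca
LYAR: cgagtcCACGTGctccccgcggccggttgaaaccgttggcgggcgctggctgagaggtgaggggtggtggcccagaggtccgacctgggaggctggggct
FBL: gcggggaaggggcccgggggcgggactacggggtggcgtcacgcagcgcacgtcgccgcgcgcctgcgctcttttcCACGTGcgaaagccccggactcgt
NAT10: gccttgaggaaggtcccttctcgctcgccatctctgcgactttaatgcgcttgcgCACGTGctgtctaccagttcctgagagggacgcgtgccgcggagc
PA2G4: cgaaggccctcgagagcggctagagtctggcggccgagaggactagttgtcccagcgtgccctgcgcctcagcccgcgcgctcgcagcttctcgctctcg
NCL: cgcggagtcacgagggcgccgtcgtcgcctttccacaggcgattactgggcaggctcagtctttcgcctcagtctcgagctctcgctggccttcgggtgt
GTPBP4: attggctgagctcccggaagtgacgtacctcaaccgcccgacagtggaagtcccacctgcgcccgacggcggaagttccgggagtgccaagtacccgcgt

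The E-box was present at 23 of the 48 matched genes, or 47.9%. These genes are a named set and not a random sample, so no interval is given. The same letters were found at 1252 of the 9618 tested genes with a promoter and at 8.78% of all 27305 genes with one, in windows of the same length. Most matches stood at the start itself: 21 of the 48 genes (43.8%) had one within 50 bases of it, against 5.48% of the tested genes, and those matches began between position -31 and position +43. In the 100 bases before the start the share was 16.7%, against 6.67% of tested genes. With only the first listed start of each gene the whole-window share was 39.6%, against 10.6%. By role the letters stood at 7 of 12 small subunit genes, 7 of 17 genes of 60S assembly, 2 of 4 of the box H/ACA genes, 2 of 3 of the box C/D genes, 1 of 6 of the RNA polymerase I genes, 0 of 2 of the scaffold genes with a promoter and 4 of 4 of the remaining genes (DDX21, IPO4, LYAR and SRM). The G and C content of the windows, at a median of 65.2%, was close to the 65.3% of the tested genes. A match is a description of letters and not a bound site.

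Most of these genes were lower with ibrutinib, and none was called higher. Averaged over the guides, 41 of the 56 were lower at a Benjamini-Hochberg adjusted p under 0.05 in limma, where 25.4% of all tested genes were called lower and 27.0% higher. Their median log2 change was -0.20, against 0.02 over all tested genes, and 54 of the 56 changes were negative. Individual changes were small, from -0.72 for LYAR to 0.07 for DDX56. In 33 of the 56 every ibrutinib library lay below every DMSO library, which 21.2% of all tested genes did. The highest of the 8 values was a DMSO library for 55 of the 56, and the lowest was an ibrutinib library for 53. The same counts were not made over all tested genes. The 56 genes took 1.41%, 1.36%, 1.44% and 1.44% of all reads in the DMSO libraries. In the ibrutinib libraries they took 1.14%, 1.16%, 1.18% and 1.17%, so the 2 ranges did not overlap. This sum weighs genes by their reads. In the first sgCTRL DMSO library NCL had 31589 and NPM1 31545 of the 189658 reads of the 56. Markers of cell types moved with the same contrast: 5 of 6 B cell markers were higher and 1 lower, both T cell markers that passed the filter were higher (CD4 and CD8A, median 1.11), and 3 of 6 epithelial or fibroblast markers were higher and 1 lower, or 2 lower without the second ibrutinib library of either guide. Their part in the result was not tested. In bulk RNA, fewer cells of a type and less RNA per cell cannot be told apart.

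With either guide the direction was the same. With sgCTRL 31 of the 56 were called lower and 0 higher, where 17.0% of tested genes were called lower and 18.1% higher, and the median change was -0.20. In the libraries labelled sgKLHL14 36 were called lower and 0 higher, where 19.4% were called lower and 19.9% higher, and the median change was -0.22. At an unadjusted p under 0.05, limma gave 1 higher gene with sgCTRL (DDX56), 0 in the libraries labelled sgKLHL14 and 0 averaged over guides, where 23.1%, 24.1% and 29.8% of tested genes were higher. By limma-voom, 0 of the 56 were called higher in any of these. The count with sgCTRL rests in part on single libraries: it was 18 without the second sgCTRL ibrutinib library and 19 without a trend of variance with level.

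**Figure D1:**
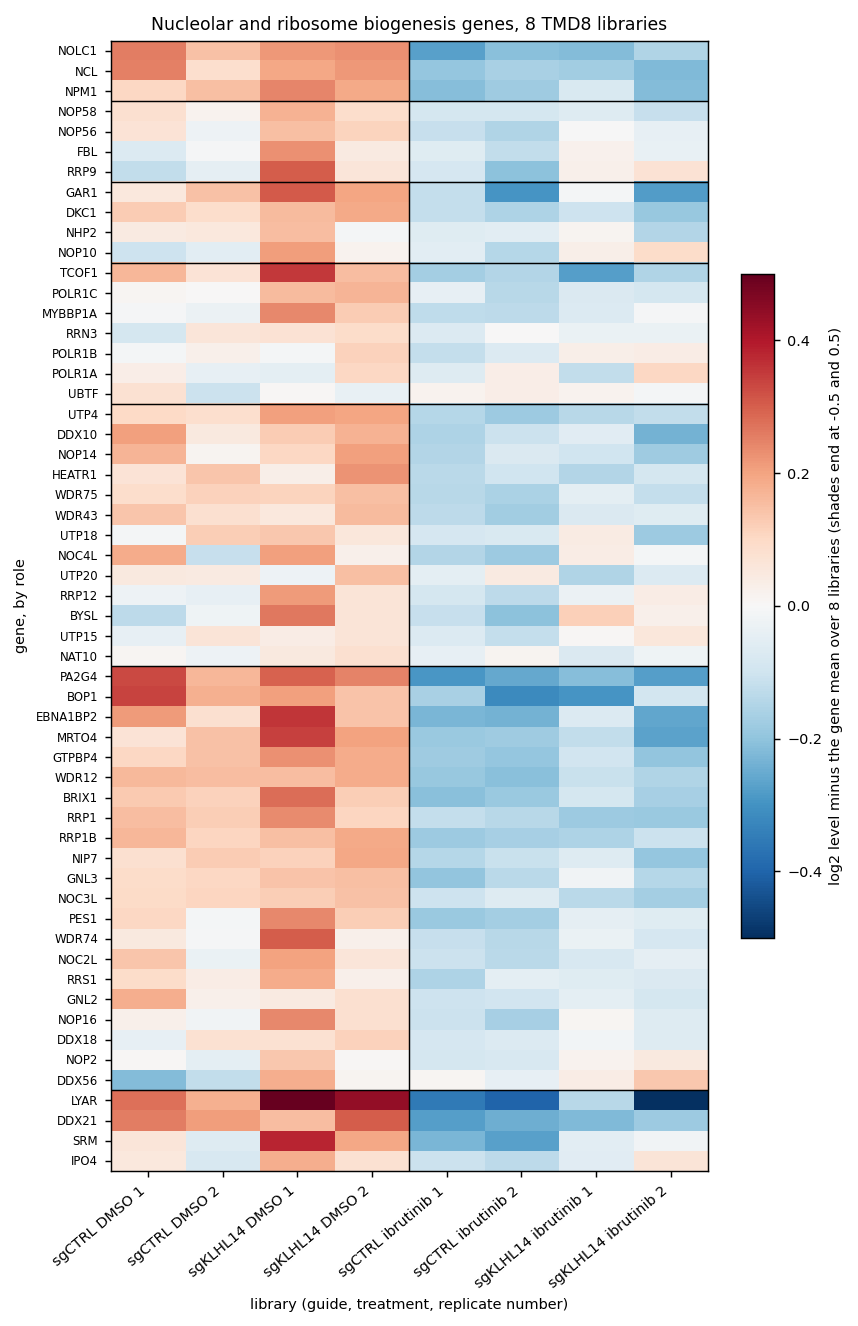
Log2 level of each of the 56 genes (rows, by role) in each of the 8 libraries (columns), as the difference from the gene's mean over the libraries; shades end at -0.5 and 0.5. The 4 DMSO libraries on the left are above the mean for most rows and the 4 ibrutinib libraries on the right are below it.

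In the values that follow, libraries are given in the order sgCTRL first and second replicate, then labelled sgKLHL14 first and second replicate. Changes are log2 changes averaged over guides, with the standard error (SE) and the limma adjusted p.

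The scaffold proteins of the nucleolus were lower in all 3 cases, with a median change of -0.37. NOLC1 (Entrez gene 9221), a chaperone of snoRNPs that also binds RNA polymerase I, read 13.87, 13.76, 13.83 and 13.85 in DMSO and 13.35, 13.41, 13.40 and 13.47 in ibrutinib. Its change was -0.42 (SE 0.042, adjusted p 8.39e-08), which left 74.6% of the DMSO level. NCL (Entrez gene 4691), nucleolin, an abundant RNA-binding protein of the nucleolus, read 15.95, 15.78, 15.89 and 15.92 in DMSO and 15.50, 15.54, 15.52 and 15.47 in ibrutinib. It fell by 0.37 on the log2 scale (SE 0.047, adjusted p 1.95e-06). NPM1 (Entrez gene 4869), nucleophosmin, which organises the outer layer of the nucleolus, read 15.95, 15.995, 16.09 and 16.03 in DMSO. In ibrutinib it read 15.63, 15.66, 15.77 and 15.63, a change of -0.34 (SE 0.047, adjusted p 5.19e-06). The treatments do not overlap for any of the 3. NPM1 has 50 pseudogenes by name in RefSeq, so its reads may be shared or lost, while NCL has 2 and NOLC1 has 1.

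The box C/D snoRNP, which methylates ribosomal RNA, changed less, with 2 of 4 genes lower and a median of -0.13. NOP58 (Entrez gene 51602) and NOP56 (Entrez gene 10528) form the paired core of this particle. NOP58 read 12.50, 12.44, 12.59 and 12.51 in DMSO against 12.33, 12.33, 12.35 and 12.30, without overlap and with a change of -0.18 (SE 0.041, adjusted p 0.00123). NOP56 read 13.31, 13.21, 13.39 and 13.35 in DMSO against 13.13, 13.09, 13.24 and 13.20. It separated within each guide but overlapped across guides, and its change was -0.15 (SE 0.041, adjusted p 0.00395). FBL (Entrez gene 2091), fibrillarin, the methyltransferase itself, read 13.19, 13.25, 13.48 and 13.30 in DMSO and 13.19, 13.13, 13.28 and 13.22 in ibrutinib. Its groups overlapped and its change of -0.10 did not pass (95% interval -0.20 to -0.0048, adjusted p 0.0724). RRP9, which belongs to the U3 particle, changed by -0.10 and did not pass either.

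In the box H/ACA snoRNP, which converts uridine to pseudouridine, 3 of 4 genes were lower, with a median of -0.20. DKC1 (Entrez gene 1736), dyskerin, the pseudouridine synthase, read 12.996, 12.96, 13.03 and 13.06 in DMSO and 12.75, 12.72, 12.77 and 12.68 in ibrutinib. The treatments were fully apart, with a change of -0.28 (SE 0.040, adjusted p 8.96e-06). GAR1 (Entrez gene 54433), a core protein of the particle, read 10.59, 10.69, 10.84 and 10.73 in DMSO against 10.42, 10.24, 10.53 and 10.26. Its ibrutinib replicates differed more, with SDs of 0.12 and 0.19 (n = 2 each), yet all lay below DMSO, and the change was -0.35 (SE 0.062, adjusted p 9.97e-05). NHP2 was lower by a small margin at -0.12 (adjusted p 0.0491), and NOP10 at -0.04 did not pass.

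Of 7 genes of RNA polymerase I transcription, 3 were lower (TCOF1, MYBBP1A and POLR1C), and the median was -0.07. TCOF1 (Entrez gene 6949), treacle, which links RNA polymerase I to ribosomal DNA, read 12.64, 12.54, 12.83 and 12.63 in DMSO and 12.30, 12.33, 12.20 and 12.32 in ibrutinib. It lay lower in every ibrutinib library, with a change of -0.37 (SE 0.049, adjusted p 3.26e-06). MYBBP1A (Entrez gene 10514), a nucleolar MYB-binding protein, read 11.85, 11.82, 12.10 and 11.98 in DMSO and 11.73, 11.72, 11.79 and 11.85 in ibrutinib. Its change was -0.17 (SE 0.043, adjusted p 0.00336), and the treatments overlapped across guides, with the libraries labelled sgKLHL14 higher in both. POLR1C, a subunit shared with RNA polymerase III, changed by -0.17 (adjusted p 0.00707). POLR1A (Entrez gene 25885), the largest catalytic subunit, read 11.76, 11.69, 11.68 and 11.83 in DMSO and 11.66, 11.76, 11.61 and 11.83 in ibrutinib. These values interleave, and the change of -0.02 had a 95% interval of -0.14 to 0.09. The second subunit POLR1B (-0.06), the initiation factor RRN3 (-0.07) and the ribosomal DNA-binding factor UBTF (0.03) did not pass the test.

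Among 13 genes of the small subunit processome and the 40S precursor, 7 were lower, with a median of -0.15. UTP4, WDR75 and WDR43 belong to the early subcomplex that binds the start of the ribosomal RNA precursor. UTP4 (Entrez gene 84916) read 12.03, 12.02, 12.14 and 12.13 in DMSO and 11.79, 11.75, 11.79 and 11.81 in ibrutinib, which were fully apart (-0.29, SE 0.041, adjusted p 6.47e-06). WDR75 (Entrez gene 84128) read 12.03, 12.06, 12.06 and 12.09 against 11.80, 11.79, 11.89 and 11.82, also without overlap (-0.23, SE 0.041, adjusted p 0.000111). WDR43 (Entrez gene 23160) read 12.49, 12.43, 12.40 and 12.50 against 12.21, 12.17, 12.27 and 12.28 (-0.22, SE 0.042, adjusted p 0.000235). All 3 lay below DMSO in every ibrutinib library. DDX10, a helicase, changed by -0.28, the processome protein NOP14 by -0.25, HEATR1, of the same early subcomplex, by -0.23 and UTP18 by -0.15, each past the threshold. The other 6 did not pass: NOC4L (-0.15), UTP20 (-0.11), RRP12 (-0.11), BYSL (-0.09), UTP15 (-0.06) and NAT10 (-0.06), an RNA acetyltransferase. UTP15 belongs to the same early subcomplex as UTP4, WDR75, WDR43 and HEATR1, and its treatments overlapped.

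The 60S assembly factors were the largest role, with 19 of 21 genes lower and a median of -0.24. Among 42 other 60S factors, given below, 18 were lower, with a median of -0.09. PA2G4 (Entrez gene 5036), a protein bound to 60S precursors and known for its link to growth, read 14.04, 13.88, 14.01 and 13.96 in DMSO and 13.42, 13.46, 13.50 and 13.44 in ibrutinib. Its ibrutinib values were 69.8% of DMSO (-0.52, SE 0.044, adjusted p 9.45e-09), the smallest p among the 56. GTPBP4 (Entrez gene 23560), a GTPase of early 60S particles, read 12.67, 12.71, 12.80 and 12.75 against 12.39, 12.37, 12.47 and 12.37 (-0.33, SE 0.041, adjusted p 1.52e-06). MRTO4 (Entrez gene 51154), which holds the place of the ribosomal stalk protein until late in assembly, read 11.81, 11.89, 12.09 and 11.94 against 11.56, 11.57, 11.62 and 11.47 (-0.38, SE 0.048, adjusted p 2.19e-06). None of the 3 had overlapping treatments. The 3 members of the PeBoW complex, which is needed to process the 60S ribosomal RNA, were all lower: BOP1 by -0.43, WDR12 by -0.33 and PES1 by -0.23. EBNA1BP2 (-0.40), BRIX1 (-0.33), RRP1 (-0.31) and its paralogue RRP1B (-0.31), NIP7 (-0.26), the nucleolar GTPases GNL3 (-0.24) and GNL2 (-0.17), NOC3L (-0.23) and its partner NOC2L (-0.18), WDR74 (-0.19), RRS1 (-0.17), NOP16 (-0.16) and the helicase DDX18 (-0.11) were also lower. NOP2, a ribosomal RNA methyltransferase, changed by -0.05 and DDX56, a helicase, by 0.07, and neither passed. PA2G4 and DDX18 have 6 pseudogenes each by name, so part of their reads may be misplaced.

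The remaining 4 genes were all lower, and LYAR had the largest fall of the 56. LYAR (Entrez gene 55646), a nucleolar zinc finger protein tied to growth, read 10.25, 10.15, 10.52 and 10.42 in DMSO and 9.62, 9.58, 9.84 and 9.43 in ibrutinib. That is 60.8% of the DMSO level (-0.72, SE 0.072, adjusted p 1.03e-07), with a wide spread between the ibrutinib libraries labelled sgKLHL14 (SD 0.29, n = 2). DDX21 (Entrez gene 9188), an RNA helicase that works with RNA polymerase I and snoRNAs, read 14.52, 14.47, 14.41 and 14.56 in DMSO and 13.98, 14.01, 14.04 and 14.08 in ibrutinib (-0.46, SE 0.043, adjusted p 3.99e-08). SRM (Entrez gene 6723), spermidine synthase, an enzyme of polyamine synthesis rather than a ribosome factor, read 12.37, 12.25, 12.70 and 12.51 in DMSO and 12.09, 12.04, 12.26 and 12.30 in ibrutinib. It fell within each guide (-0.29 averaged, SE 0.048, adjusted p 5.51e-05), while the treatments overlapped across guides. IPO4, an importin that carries proteins into the nucleus, changed by -0.12 (adjusted p 0.0429).

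**Figure D2:**
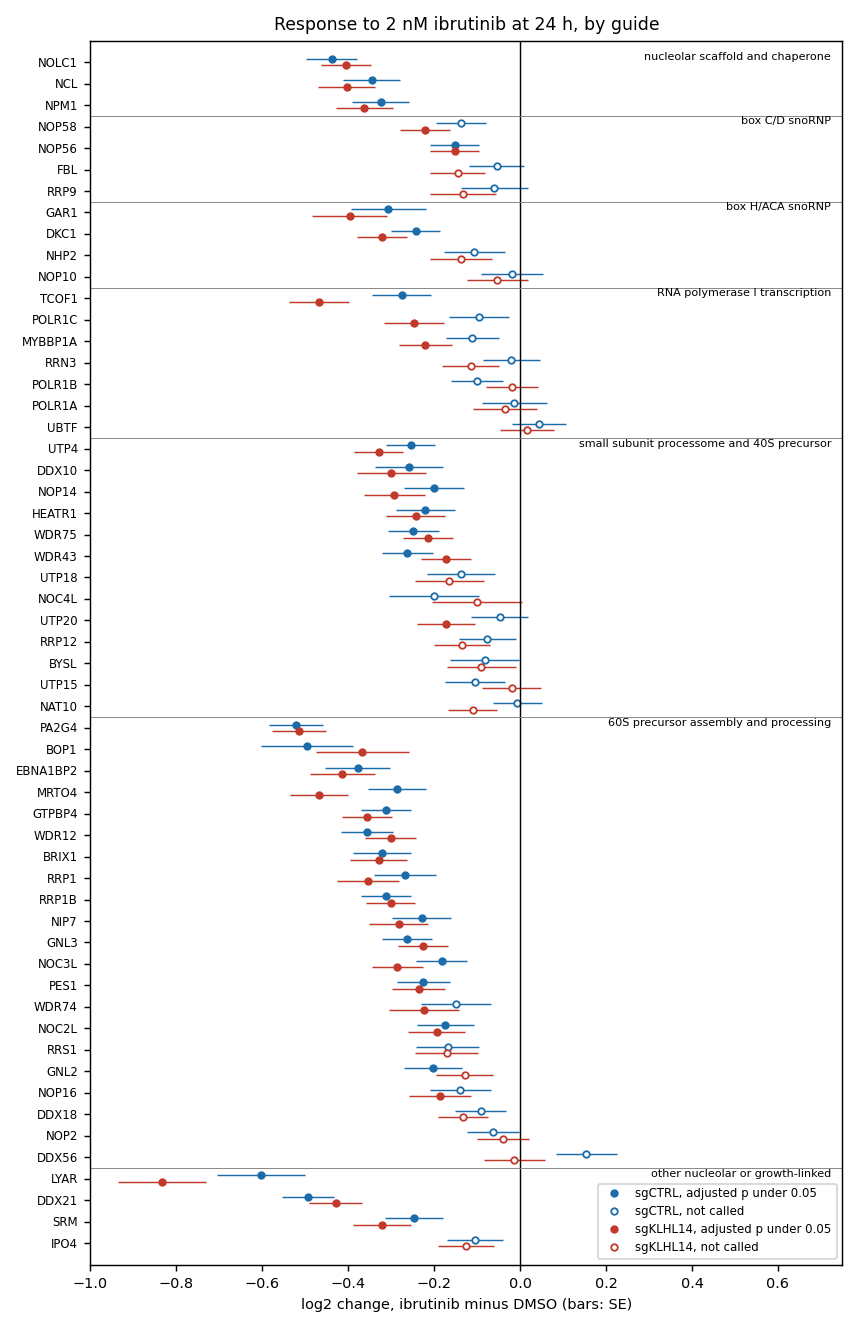
Log2 change with ibrutinib for each of the 56 genes, by role, with sgCTRL (blue) and in the libraries labelled sgKLHL14 (red); points are estimates from 2 libraries against 2, bars are SE, and filled points have an adjusted p under 0.05. Nearly all points lie left of 0, and LYAR reaches -0.60 and -0.83.

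**Figure D3:**
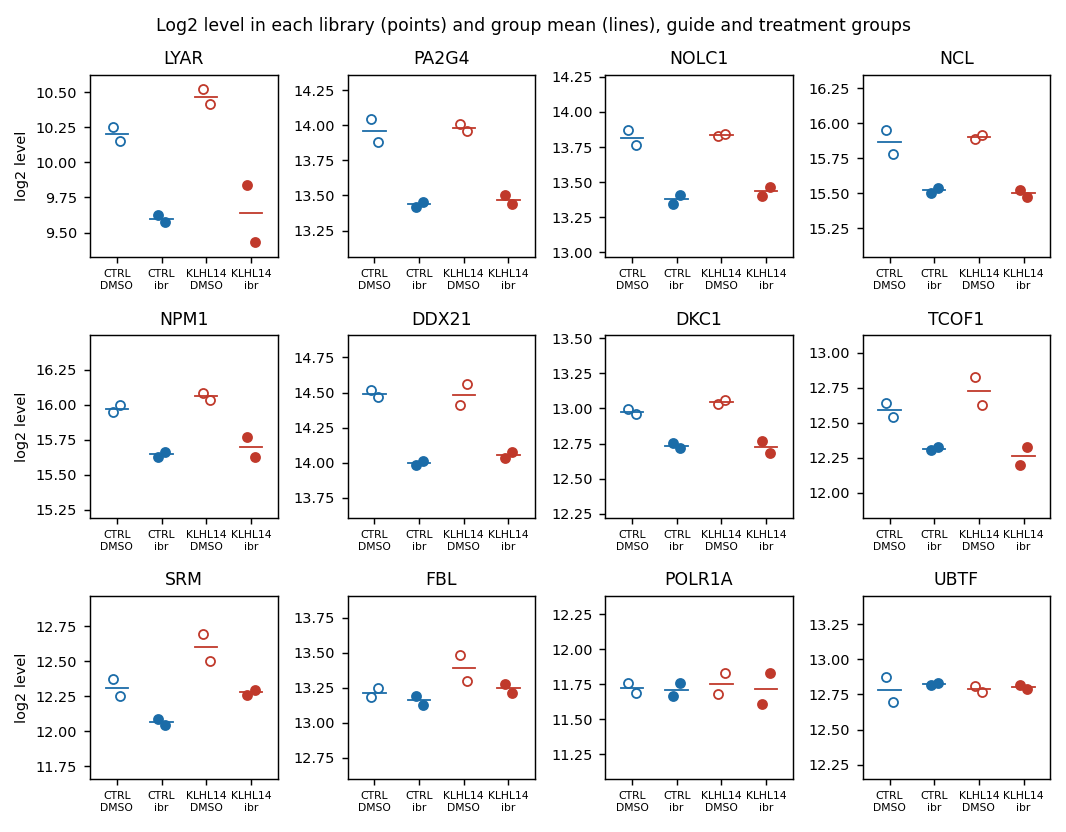
Log2 level of 12 of the genes in each library (points) with the group mean (line), for sgCTRL (blue) and libraries labelled sgKLHL14 (red), in DMSO (open) and ibrutinib (filled); every panel spans the same log2 range. LYAR, PA2G4, NOLC1, NCL, NPM1, DDX21, DKC1 and TCOF1 separate by treatment, whereas FBL, POLR1A and UBTF overlap.

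Few of the tested genes were called between guides, and few of the 56. In DMSO 1 of the 56 was called, SRM, at 0.29 higher in the libraries labelled sgKLHL14 (SE 0.068, adjusted p 0.0331), where 0.782% of tested genes were called higher. The SRM values were 12.70 and 12.51 against 12.37 and 12.25 with sgCTRL, which do not overlap. The count rests on single libraries: it was 7 without the second DMSO library labelled sgKLHL14, and 0 without the first one, without either sgCTRL DMSO library or without either sgCTRL ibrutinib library. It was also 0 with quantile or median scaling, with no filter on low values and without a trend. Below the threshold stood DDX56, at 0.27 with an adjusted p of 0.0604. At an unadjusted p under 0.05 there were 14 genes higher and 0 lower, where 7.1% and 6.7% of tested genes were. The median change of the 56 was 0.08, against 0.003 over all tested genes. Of the 56 changes 52 were positive, as were 6368 of the 12531 over all tested genes. The first DMSO library labelled sgKLHL14 held the highest value for 30 of the 56 genes and the second for 17. How often each held it over all tested genes was not counted. In ibrutinib 0 of the 56 were called in limma, where 2.38% of tested genes were called, and 0 in limma-voom. At an unadjusted p under 0.05 there were 4 higher (SRM, BYSL, RRP9 and NOP10) and 0 lower, where 6.6% and 6.3% of tested genes were. The median of the 56 in ibrutinib was 0.05, against -0.0045 over all tested genes. Here 41 of the 56 changes were positive, as were 6074 of the 12531 over all tested genes. Since these libraries did not have less KLHL14 mRNA, the direction is that of the labels.

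The response to ibrutinib was not shown to differ with the guide for any of the 56. In the test of the difference, 0 were called by limma and 0 by limma-voom, where 0.0239% of tested genes were called, 3 in all. KLHL14 itself, which is not a member, was among the 3, with a difference of 0.66 (limma adjusted p 0.00164). At an unadjusted p under 0.05 there were 0 of the 56, where 3.0% of tested genes were higher and 2.7% lower. The median difference, labelled sgKLHL14 minus sgCTRL, was -0.04, and it turned to 0.01 without the first DMSO library labelled sgKLHL14. The estimate farthest below 0 was that of LYAR, at -0.23 with a 95% interval of -0.53 to 0.07. For TCOF1 it was -0.19 (-0.40 to 0.01) and for MRTO4 -0.18 (-0.38 to 0.02). For PA2G4 the difference was 0.01, with an interval of -0.18 to 0.19, so differences of that size in either direction remain possible.

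Other genes of the same pathway were read from lists of the known factors that are not among the 56. Of 43 other small subunit processome and 40S factors, 28 were lower and 2 higher (UTP3 at 0.25 and DHX37 at 0.13), with a median of -0.16. The 2 became 1 without the second sgCTRL DMSO library, without the second DMSO library labelled sgKLHL14 or without any 1 of the ibrutinib libraries. The count higher was also 1 with no filter on low values and without a trend. TSR1 (-0.31), a 40S maturation factor, KRR1 (-0.34), of the processome, and BUD23 (-0.38), a methyltransferase of 18S ribosomal RNA, had the smallest p. Of 42 other 60S factors, 18 were lower and 3 higher, with a median of -0.09. The 3 became 0 without the first sgCTRL ibrutinib library, and 1 without the second sgCTRL DMSO library or the first ibrutinib library labelled sgKLHL14. Without a trend, 1 of these 60S factors was called higher. PAK1IP1 (-0.52), SBDS (-0.43), which is needed to release a factor from the 60S surface, and RSL24D1 (-0.39) had the smallest p. The largest fall was that of PPAN (-0.56). Of 14 other RNA polymerase I genes, 8 were lower and 1 higher, with a median of -0.16, and 5 were lower without the first sgCTRL ibrutinib library. TAF1C, a subunit of the selectivity factor, was the 1 that rose (0.41, adjusted p 4.71e-06), while POLR1E (-0.28) and POLR2F (-0.39), a subunit common to 3 polymerases, fell. Beside these counts stand the 25.4% lower and 27.0% higher among all tested genes.

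The ribosomal proteins are what these factors assemble into subunits. Of 55 cytosolic ribosomal protein genes, 22 were called higher and 0 lower, where 27.0% and 25.4% of tested genes were. The median of the 55 was 0.10, and RPS27 (0.29), RPL3 (0.29) and RPS9 (0.33) had the smallest p. The count is not steady: it was 6 with no filter on low values, 8 without a trend, 26 with quantile scaling and 10 to 30 when 1 library was left out. Without the second DMSO library labelled sgKLHL14, 12 were higher and 2 lower, and without the first ibrutinib library labelled sgKLHL14, 17 were higher and 2 lower. Their summed share of reads was 7.79%, 7.89%, 8.63% and 7.88% in DMSO and 8.63%, 8.43%, 9.15% and 8.56% in ibrutinib, so the first DMSO library labelled sgKLHL14 lay within the ibrutinib range. Without it 30 were higher and 0 lower, with a median of 0.13. Those genes share many pseudogenes, and their reads may be misplaced.

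**Figure D4:**
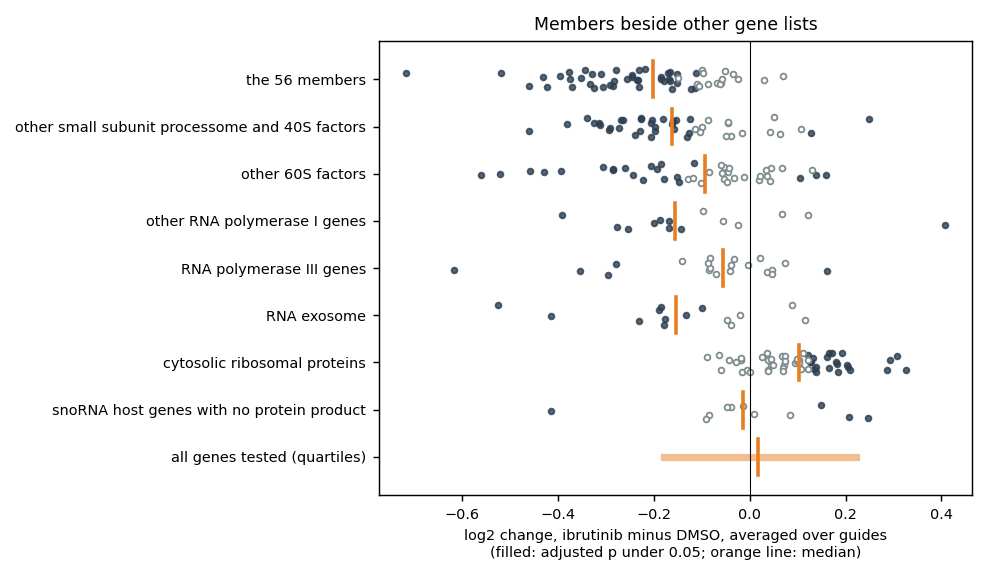
Log2 change with ibrutinib averaged over guides for the 56 genes and for 7 other lists (points, filled where the adjusted p is under 0.05), with each median as an orange line and the quartiles of all tested genes as a band. The medians run from -0.20 for the 56 to 0.10 for the ribosomal proteins.

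MYC, a known regulator of these genes, read 12.43, 12.27, 12.45 and 12.33 in DMSO and 11.99, 11.92, 12.22 and 12.22 in ibrutinib. Every ibrutinib value was below every DMSO value, and the averaged change was -0.28 (SE 0.047, adjusted p 5.04e-05). With sgCTRL the change was -0.40 (adjusted p 0.000110), and in the libraries labelled sgKLHL14 it was -0.17 (adjusted p 0.0543). The test of the difference gave 0.23 with an adjusted p of 0.858, so the 2 responses were not shown to differ. In ibrutinib, MYC stood 0.27 higher in the libraries labelled sgKLHL14 than with sgCTRL (adjusted p 0.0341), a call that was lost without any 1 of the 4 ibrutinib libraries, with no filter on low values, without a trend and by limma-voom. MAX, its partner, read 10.97, 10.93, 11.01 and 10.91 in DMSO and 10.85, 10.86, 10.84 and 10.68 in ibrutinib, a change of -0.14 (adjusted p 0.0211). Of the 11 tested genes of the wider MYC network 5 were higher and 3 lower, where 27.0% and 25.4% of tested genes were. The called genes include MXD4 (1.08) and MXI1 (-0.42), which both encode MAX partners that oppose MYC. The 5 became 2 without a trend, and 2 without the second sgCTRL DMSO or the second sgCTRL ibrutinib library. They became 3 with no filter, with quantile scaling, without the first sgCTRL DMSO or ibrutinib library, without either DMSO library labelled sgKLHL14 or without the second ibrutinib library so labelled.

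The fall with ibrutinib was called at genes with and without the E-box. Of the 23 with CACGTG in the window, 16 were lower with ibrutinib, and of the 25 without it 18 were. Their median changes were -0.22 and -0.19. Among the 21 with the letters within 50 bases of the start, 14 were lower and 7 were not called (BYSL, FBL, NAT10, NOP10, NOP2, RRP9 and UTP20). LYAR and DDX21, shown above, hold an E-box before 1 of their 2 starts, whereas PA2G4, with the smallest p, has none in its window.

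**Figure D5:**
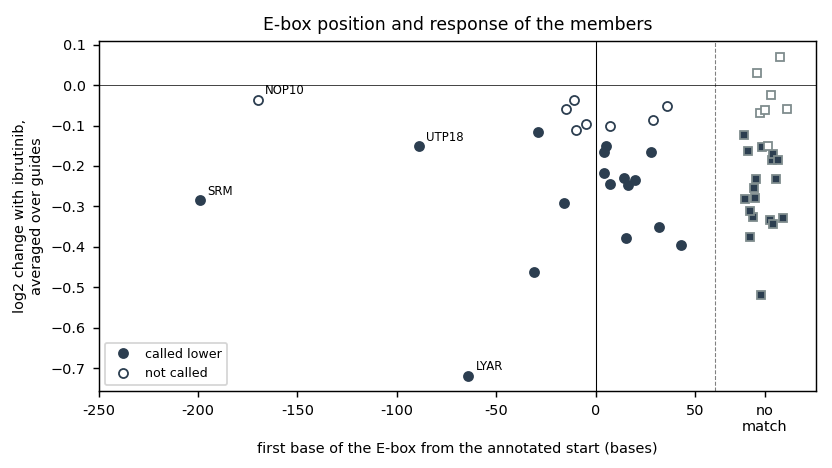
Log2 change with ibrutinib averaged over guides against the position of each E-box from the annotated start, for the 48 genes with a promoter; NOP10 and UTP18 have 2 matches and appear at both, and genes without a match stand at the right. Filled points were called lower. Most matches lie within 50 bases of the start, and called and uncalled genes occur both with and without a match.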

How the data were processed

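The libraries were stranded poly(A) preparations read as pairs, per the labels' protocols. Base calling used bcl2fastq, alignment STAR and counting HTSeq, with hg19 as the genome build, per the submitters' processing notes. Versions, annotation and whether strand was used in counting were not given in the sources used here, and antisense or overlapping genes may therefore share reads. The authors deposited one table of log2 values for 8 libraries in 4 groups of 2, and its row of total reads was left out. Undoing the log2 and the scale of each library gave whole reads for 100% of values (within 6e-04 on the log2 scale), which summed to 99.9991% to 100.001% of the totals. Genes without reads are listed at 0. There were 0 columns of other samples.

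A mean log2 value of at least 4.2 was required, which kept 12531 genes, 0 of them with an empty library. No pseudocount was added. The model was limma 3.58.1 (R 4.3.3) with one mean for each of the 4 groups and variance following level, at 4 residual and 14.9 prior degrees of freedom. Calls needed a Benjamini-Hochberg adjusted p under 0.05 over all kept genes. The contrasts compared treatments within each guide and on average, guides within each treatment, and the responses between guides, so they share libraries. The model was tested on simulated data where few genes changed, equally up and down. That test does not cover data in which as many genes are called as here. The members, the lists (other 40S, 60S and RNA polymerase I factors, RNA polymerase III, RNA exosome, ribosomal proteins, non-coding snoRNA hosts, MYC network and cell type markers) and the tests were chosen with earlier results of these data known. Of 242 list genes, 2 were not found. Of the B cell markers, 1 is not reported here. Values in each library were given for the 2 members of each role with the smallest averaged p (3 for roles of 13 or more), for members called between guides, and for NCL, NPM1, FBL and POLR1A. For the lists, the 3 genes with the smallest p could be named, and UTP3, DHX37, PPAN, POLR3K, MAF1 and members named by an unadjusted p or by their interval were picked after their values were seen. Alternatives were other filters, a pseudocount of 16, no trend, quantile and median scaling, limma-voom on the recovered reads, a replicate block and leaving out each library. Promoters came from RefSeq, GRCh38.p14. A gene with 2 listed starts counted as holding the E-box where either did.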

Additional observations from a re-analysis of the deposited data

How the results depend on the processing

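Averaged over guides, 33 of the 41 members called lower with ibrutinib were called in all 16 alternatives. The others were lost in at least 1: NHP2, POLR1C, UTP18, WDR74, NOP16, RRS1, DDX18 and IPO4. The count ran from 35 to 44 and the median from -0.23 to -0.19 when 1 library was left out, and 0 members were higher in any setting. With sgCTRL 17 of 31 calls held in every setting and in the libraries labelled sgKLHL14 22 of 36. The count lower with sgCTRL was 19 without a trend and 18 to 31 when 1 library was left out, with a median of -0.22 to -0.16. In the libraries labelled sgKLHL14 leaving out 1 library gave 26 to 37 and a median of -0.25 to -0.21. Between guides in DMSO, the 1 member called higher became 0 with no filter, without a trend and with quantile or median scaling, 3 with the replicate block and 0 to 7 when 1 library was left out, with a median of 0.062 to 0.104. Between guides in ibrutinib 1 member was called higher with the replicate block and 0 to 1 when 1 library was left out. The median difference of responses ran from -0.068 to 0.0075 when 1 library was left out, and it reversed without the first DMSO library labelled sgKLHL14. The averaged changes of 3 uncalled members also changed sign: when 1 library was left out, NOP10 ran from -0.0845 to 0.0125 (positive without the first DMSO library labelled sgKLHL14), POLR1A from -0.0805 to 0.032 (positive without the second DMSO or the first ibrutinib library labelled sgKLHL14) and UBTF from -0.01575 to 0.07575 (negative without the second sgCTRL DMSO library). The E-box share was 16.7% in the 100 bases before the start and 39.6% with the first listed start, a setting chosen after seeing the data. The cause of these changes was not tested. Where a group was left with 1 library, it was assumed to vary like the others.

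Deviations from the group means correlated at -0.06 to 0.12 between groups. These values do not decide whether replicate numbers pair the libraries, since a shift confined to the members need not show in them. The mean log2 level of the members was higher in the first replicate of every group. In DMSO it was 11.9176 against 11.8844 with sgCTRL and 12.0162 against 11.9645 in the libraries labelled sgKLHL14. In ibrutinib it was 11.7022 against 11.6963 and 11.7653 against 11.7368. With the replicate block 43 members were lower averaged over guides, with FBL and UTP20 added. The lowest read number of a member was 185, for BOP1, and counting error is larger at members with few reads. With 2 libraries a group the averaged changes had SEs of 0.04 to 0.08.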

Other observations

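The machinery around these genes was less uniform. Of 14 RNA exosome genes, which trim and degrade ribosomal RNA precursors, 9 were lower averaged over guides and 0 higher, with a median log2 change of -0.15. The count was 7 to 9 in all alternatives. MPHOSPH6 (-0.53), a cofactor of the nuclear exosome, EXOSC8 (-0.41) and EXOSC9 (-0.23), which belong to its ring, had the smallest p. Of 20 RNA polymerase III genes, which make 5S ribosomal RNA and transfer RNA, 4 were lower (POLR3G, GTF3A, POLR3B and POLR3K) and 1 higher, with a median of -0.06. POLR3G, a subunit variant of dividing cells, fell by 0.62 and GTF3A, the factor of 5S genes, by 0.35. MAF1, the repressor of this polymerase, was the 1 that was higher (0.16, adjusted p 0.0142, limma), and 0 were higher without a trend, without the second DMSO library labelled sgKLHL14 or without the first sgCTRL ibrutinib library. Beside these counts stand the 25.4% of tested genes called lower and 27.0% called higher.

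Members that carry small nucleolar RNA genes inside their spans were more frequent than among tested protein-coding genes, by the RefSeq gene list: 6 of 56 (10.7%) against 215 of 11364 (1.89%). They were GNL3 and NOP56 with 5 each, NOP58 with 4, NCL and WDR43 with 3 and DKC1 with 2, among them SNORD19 and SNORD69 in GNL3 and SNORA36A and SNORA56 in DKC1. All 6 were called lower, with a median change of -0.23, against 35 of the other 50 members with a median of -0.19. Poly(A) libraries do not measure the small RNAs themselves. Of 11 host genes without a protein product, 1 was lower and 3 higher, where 25.4% and 27.0% of tested genes were, with a median of -0.01. The 3 became 0 with no filter on low values, without a trend, without the first sgCTRL DMSO library or without the first ibrutinib library labelled sgKLHL14, and 1 without either DMSO library labelled sgKLHL14 or without the second sgCTRL ibrutinib library. SNHG15 changed by -0.42, EPB41L4A-AS1 by 0.21 and SNHG6 by 0.15.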
